A study of Sus scrofa with 6 samples.

Results

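The genes that let myoblasts fuse and that build the muscle side of the neuromuscular junction were followed in single-cell ATAC-seq libraries of pig embryos. The 9 genes, of 25859 annotated genes with a window in the assembly Sscrofa11.1, were chosen by name: the fusion gene MYMK, the muscle cadherin gene CDH15, the acetylcholine receptor subunit genes CHRNA1, CHRNB1, CHRND and CHRNG, and the receptor clustering genes MUSK, RAPSN and DOK7. A gene window was the gene body plus 2 kb upstream. Overlapping peaks (by 1 bp or more) of different libraries were joined into regions, and the windows of the 9 genes held 62 of the 294825 regions. Of these, 26 had a peak in all 6 libraries, as had 78533 regions genome-wide, and 11 had a peak in a single library. A promoter region was one that overlapped the 2 kb before an annotated transcript start of the gene, or the start itself, which applied to 10 of the 62 regions. The other 52 regions lay in introns, in exons or at the 3′ end, and 23 of the 62 also touched the window of another gene.

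Somites were taken at embryonic day 18 (E18) and day 21 (E21), and myotomes, the somite portion that forms skeletal muscle, at day 28 (E28). At each stage 1 library came from purebred Tibetan pigs (ZZ) and 1 from Duroc × Tibetan crosses (DZ), with no further treatment or allele. Each library pooled 5 embryos of 1 sow, so a library is the unit of every test and differences between embryos cannot be seen. Tissue and stage changed together at E28 and cannot be told apart, and with 1 library for each stage and breed, a breed effect that changes with stage cannot be tested. A barcode was kept as a cell if its peaks held 2000 to 30000 counts, which left 9286 to 11243 cells per library and 89816504 to 133037579 counts in them. The called peaks covered 102 to 191 Mb per library and covered least at E28. Any pair of libraries shared 135 to 189 barcodes, at most 1.70% of the smaller library. Levels are given as CPM, the counts divided by the kept counts of the library on the usual scale, and a library with no called peak in a region is listed at 0 there. The myogenic marker list summed to between 779 and 883 CPM in every library, the epithelial list to 284 and 288 CPM at E18 but 146 and 150 CPM at E28, the neural progenitor list to 325 and 368 CPM at E18 but 159 and 234 CPM at E28, the neuron list to 286 and 276 but 164 and 160, the cardiac list to 466 and 352 but 180.4 and 263, and the fibroblast list to 455 and 496 CPM at E18 but 576 and 628 CPM at E28. The endothelial list summed to 539 and 555 CPM at E18 and to 423 and 431 CPM at E28 (ZZ before DZ). In the same order, the neural crest and glia list went from 153 and 158 to 72.2 and 113 CPM. The blood list went from 139 and 129 to 88.9 and 88.7 CPM, and the sclerotome and cartilage list from 486 and 475 to 460 and 438 CPM. The part of these other cell types in the results was not tested.

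Skeletal muscle fibres arise when myocytes that have left the cell cycle adhere and merge, a step that needs myomaker, the membrane protein encoded by MYMK, and that is accompanied by cadherins such as M-cadherin (CDH15). The fibre then receives a motor nerve. Its acetylcholine receptor is a pentamer of α, β and δ subunits with a γ subunit in the embryo, which an ε subunit replaces later in life. Receptors are gathered under the nerve terminal by the receptor kinase MuSK, its adaptor Dok-7 and the scaffold protein rapsyn. The receptor subunit genes are textbook targets of MyoD and myogenin, which bind E-boxes (CANNTG, most often CAGCTG or CACCTG).

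The 150 bases immediately upstream of the annotated RefSeq starts of CHRNA1, CHRNG, CHRND and MYMK are shown. These stretches were chosen because the regions holding the first 3 starts gained counts with stage, while the start of MYMK did not pass the test. They were read from the Sscrofa11.1 genome, 5′ to 3′ on the strand of the gene, with CAGCTG and CACCTG (or its reverse complement CAGGTG) in capitals. CHRNA1 lies on the minus strand at chr15:80692257-80692406, CHRNG on the plus strand at chr15:133051518-133051667, CHRND on the plus strand at chr15:133040160-133040309 and MYMK on the minus strand at chr1:273111722-273111871.
CHRNA1: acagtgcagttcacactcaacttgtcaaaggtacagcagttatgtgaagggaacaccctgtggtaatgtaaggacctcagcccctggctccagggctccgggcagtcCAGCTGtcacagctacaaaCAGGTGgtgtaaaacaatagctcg
CHRNG: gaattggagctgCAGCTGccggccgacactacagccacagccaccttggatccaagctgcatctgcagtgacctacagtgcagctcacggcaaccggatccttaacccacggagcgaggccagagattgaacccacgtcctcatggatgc
CHRND: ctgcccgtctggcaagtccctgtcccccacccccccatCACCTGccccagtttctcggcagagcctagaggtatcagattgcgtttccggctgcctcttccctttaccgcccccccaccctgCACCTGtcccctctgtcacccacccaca
MYMK: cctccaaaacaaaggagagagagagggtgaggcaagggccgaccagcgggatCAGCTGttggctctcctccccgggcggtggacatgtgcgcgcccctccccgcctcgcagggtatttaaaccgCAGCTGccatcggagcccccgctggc
The CHRNA1 stretch held CAGCTG at -43 and CAGGTG at -24, counted to the first base of the motif with the base before the start as -1. CHRNG held 1 CAGCTG at -138, and CHRND held CACCTG at -112 and -28. MYMK held CAGCTG at -98 and -26. The region holding the start of a shorter RAPSN transcript also gained counts with stage, but its bases are not shown. The 150 bases upstream of that start held neither CAGCTG nor CACCTG on either strand, but a CAGCTG began 5 bases past the start base. Another annotated CHRND start, in the same promoter region, had CAGCTG at -55. The gene starts of RAPSN and MUSK, used in the counts that follow, lay in no called region. In the 300 bases from 250 before to 50 after the gene start, searched on both strands, CAGCTG was present in 4 of the 9 genes (MYMK, CHRNA1, CHRNG and MUSK) and in 17.8% of 25851 promoters. MYMK alone of the 9 genes held 2 copies, and 1.97% of all promoters held 2 or more. CACCTG was present in 6 of the 9 genes and in 23.2% of promoters, and CANNTG, which includes both, in all 9 and in 70.7%. The N-box CCGGAA, bound by ETS factors and known from synaptic genes, was present in CHRND alone of the 9 and in 15.8% of promoters. Repeats were not masked, in the 9 genes or in the other promoters, so a match may lie in a repeat. These are matches of letters, not binding sites, and no match says only that the letters are absent from the window.

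Across stages, the window of the α subunit gene CHRNA1 had the largest fold change of the 9 genes, those of MUSK and CHRNG also rose, and DOK7 fell. The gene windows of 4 of the 9 genes differed between E28 and E18 (edgeR quasi-likelihood test, Benjamini-Hochberg adjusted p under 0.05), 3 higher and 1 lower at E28. That share, 44.4%, lies near the 42.5% of 22612 windows called genome-wide, of which 19.4% were higher and 23.1% lower, so the count by itself says nothing particular about these genes. The median log2 fold change of the 9 windows was 0.07, against -0.06 for all windows. In such sums, fewer cells of a type and less accessibility per cell cannot be told apart. Between E21 and E18, and between E28 and E21, 1 of the 9 windows differed, CHRNA1 in both cases, against 2.32% and 6.62% of all windows.

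CHRNA1 (chr15:80673072-80692256, minus strand) encodes the subunit that carries most of the acetylcholine binding site. Its window held 3.54 CPM in E18 ZZ, 4.05 in E18 DZ, 10.9 in E21 ZZ, 14.0 in E21 DZ, 26.8 in E28 ZZ and 44.4 in E28 DZ. The stages did not overlap, and within each stage the DZ library was the higher. The window rose by 3.13 ± 0.19 (log2, SE) from E18 to E28 (adjusted p = 0.00247, edgeR), an 8.77-fold difference, by 1.68 ± 0.18 from E18 to E21 (adjusted p = 0.0339) and by 1.45 ± 0.18 from E21 to E28 (adjusted p = 0.0256). The E28 against E18 call held without any 1 library (adjusted p at most 0.0226). The call between E21 and E18 was lost without either library of E18 or E21 (adjusted p up to 0.202), and that between E28 and E21 without either library of E21 (up to 0.153).

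Within the CHRNA1 window, both the promoter region and regions in the gene body gained counts. The window mean went from 3.79 CPM at E18 to 35.6 at E28 and that of the promoter region from 0.743 to 15.7, so more of the gain lay outside the promoter region than in it. The promoter region (chr15:80690958-80693292) holds the start whose upstream bases are shown above, and it had 0.789 CPM in E18 ZZ and 0.698 in E18 DZ, from 105 and 87 counts. It had 4.0004 CPM in E21 ZZ, 6.69 in E21 DZ, 11.14 in E28 ZZ and 20.3 in E28 DZ, from 440, 714, 1001 and 2002 counts. The promoter region was thus low in both E18 libraries and high in both E28 libraries, with E21 between. The difference between E28 and E18 was 4.26 ± 0.38 on the log2 scale (adjusted p = 0.00286, edgeR), or 19.2-fold, and was called without any 1 library. From E18 to E21 the region rose by 2.71 (adjusted p = 0.0245) and from E21 to E28 by 1.56 (adjusted p = 0.0499). The former was lost without E18 DZ, E21 ZZ or E21 DZ (adjusted p up to 0.237) and the latter without E21 ZZ, E21 DZ or E28 DZ (up to 0.268). The peak itself widened, from 384 to 438 bp at E18 to 1543 to 2328 bp at E28. With the covered length as an offset, the promoter region rose by 2.08, or 1.66 relative to the median region. A region over a coding exon of the gene (chr15:80685013-80685935) had no peak in either E18 library and held 3.16 and 4.08 CPM at E21 and 7.98 and 16.2 at E28, with DZ the second of each pair. In contrast, the region at chr15:80676221-80676777 stayed between 2.07 and 2.74 CPM in all 6 libraries, with a log2 difference of -0.09 ± 0.33 (adjusted p = 0.847).

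**Figure D1:**
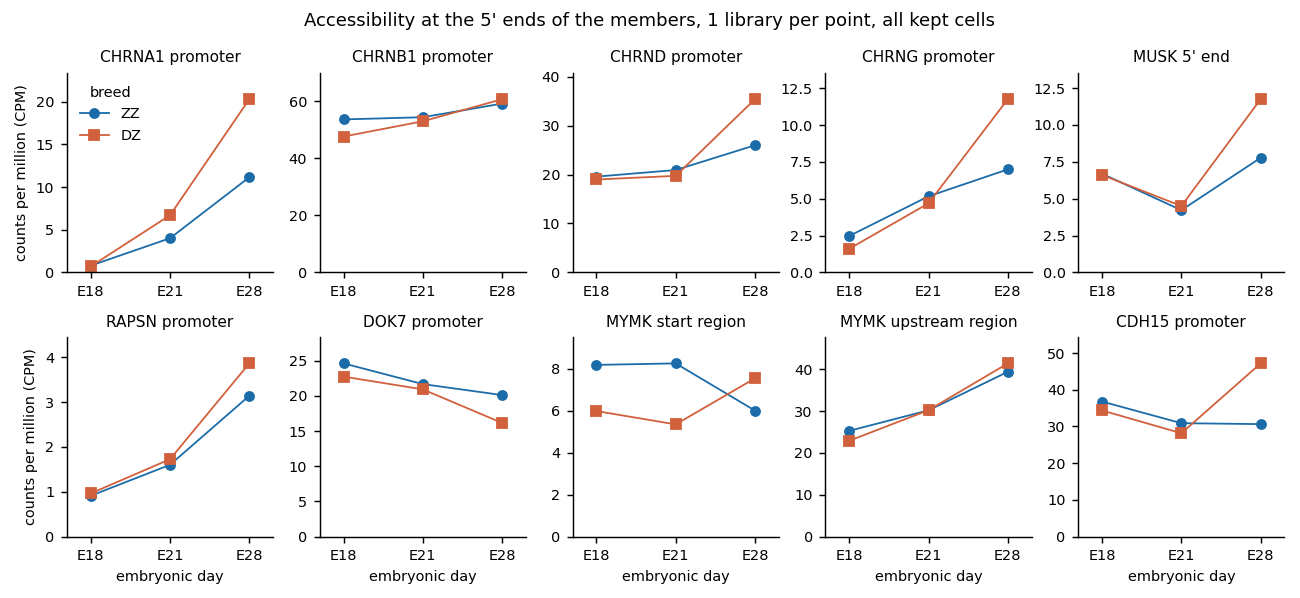
Accessibility of the regions at or nearest the 5′ ends of the 9 genes, in CPM, against the stage, with 1 panel per region, a circle for each ZZ library and a square for each DZ library. The CHRNA1 panel rises from under 1 CPM at E18 to 11.14 and 20.3 CPM at E28, while the CHRNB1 panel stays between 47.6 and 60.7 CPM.

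The γ subunit gene CHRNG, whose product marks the embryonic receptor, gained counts at its start as well. Its promoter region (chr15:133051391-133052764) had 2.47 CPM in E18 ZZ, 1.60 in E18 DZ, 5.16 in E21 ZZ, 4.69 in E21 DZ, 6.99 in E28 ZZ and 11.8 in E28 DZ. Every later library lay above both E18 libraries. The difference between E28 and E18 was 2.15 ± 0.41 (log2; adjusted p = 0.0119, edgeR), or 4.43-fold, and without the E18 DZ library the adjusted p was 0.0858. The region at the 3′ end of the gene (chr15:133059433-133061472), which also lies in the window of EIF4E2, had 27.2 and 26.6 CPM at E18 against 40.2 and 37.8 at E28. It rose by 0.49 ± 0.11 (adjusted p = 0.0210, edgeR), a call that was lost without either E18 library (adjusted p up to 0.178). A second promoter region further upstream (chr15:133050191-133050767) went the other way in level, with 2.29 and 2.65 CPM at E18 against 0.0445 and 1.34 at E28, with adjusted p = 0.157 and only 4 counts in E28 ZZ. That library decided the value, which was -0.95 without E28 ZZ (adjusted p = 0.195) and -5.77 and called without E28 DZ (0.00130). The whole window, at 36.2, 34.9, 40.4, 42.5, 49.2 and 53.4 CPM in the order of libraries used above, rose by 0.47 ± 0.10 (adjusted p = 0.0198). That call was lost without E18 ZZ (adjusted p = 0.0624) and without E18 DZ (0.143).

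CHRND encodes the δ subunit and lies next to CHRNG. Its promoter and its 3′ end moved in opposite directions. The promoter region (chr15:133036996-133042001, shared with PRSS56) had 19.6 and 18.99 CPM at E18 (ZZ before DZ), then 20.9 and 19.7 at E21 and finally 26.0 and 35.4 at E28. It rose by 0.61 ± 0.18 (adjusted p = 0.0403, edgeR), a call lost without any 1 library other than E28 ZZ (adjusted p up to 0.278). The region at the 3′ end (chr15:133047644-133049634) had 7.49 and 5.64 CPM at E18, then 6.40 and 3.38 at E21 and finally 1.66 and 1.47 at E28. Here both E28 libraries were below all others, and the region fell by 2.10 ± 0.31 on the log2 scale from E18 to E28 (adjusted p = 0.00642; 0.0528 without E18 DZ) and by 1.57 from E21 to E28 (adjusted p = 0.0433). The latter was lost without any 1 library of E18 or E21 (up to 0.236). This fall went with shorter peaks: with the covered length as an offset the difference from E18 was 0.22, or -0.20 relative to the median region. At E28 the peaks of this region lay past the gene end and outside the window. The whole CHRND window had 27.4, 25.3, 27.3, 23.6, 26.0 and 35.4 CPM, a difference of 0.16 (adjusted p = 0.523) that was 0.47 and called without E28 ZZ (adjusted p = 0.0274) but -0.18 without E28 DZ (0.329).

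CHRNB1 encodes the β subunit, and its promoter (chr12:52748660-52751181) was open at every stage. That region had 53.6, 47.6, 54.4, 53.0, 59.2 and 60.7 CPM in the order of libraries used above, a difference of 0.19 ± 0.10 that did not pass the test (adjusted p = 0.173, edgeR). The most open region outside the promoter (chr12:52756224-52757725) had 40.4, 42.8, 39.7, 48.6, 48.5 and 36.3 CPM (-0.03, adjusted p = 0.915). The window held 128 to 144 CPM throughout. In introns, the region at chr12:52760952-52761775 fell by 1.61 ± 0.40 (adjusted p = 0.0258) and that at chr12:52764825-52767506 by 0.86 ± 0.19 (adjusted p = 0.0196). The former call was lost without E18 ZZ, E18 DZ or E28 ZZ (adjusted p up to 0.152), and the latter without either E18 library (up to 0.138). The window overlaps those of TMEM102, FGF11, ZBTB4 and SLC35G6, which share 6 of its 10 regions, so these values cannot be given to CHRNB1 alone.

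Of the genes that cluster the receptor, MUSK gained counts over its window as a whole, with regions that appeared and others that were lost. MUSK (chr1:251650151-251758538) encodes the kinase that agrin activates through LRP4. No region met the promoter definition, and the first region began 77 bp past the annotated start. Whether that RefSeq start is the one used in muscle is not known from these data. The window had 14.4 CPM in E18 ZZ, 16.7 in E18 DZ, 14.9 in E21 ZZ, 26.0 in E21 DZ, 25.1 in E28 ZZ and 50.2 in E28 DZ. It rose by 1.12 ± 0.22 from E18 to E28 (adjusted p = 0.0150, edgeR), or 2.18-fold, with adjusted p = 0.0688 without E18 DZ, and DZ was above ZZ at each stage. The first region (chr1:251650228-251651910) had 6.69, 6.61, 4.22, 4.50, 7.77 and 11.7 CPM, a difference of 0.48 that did not pass (adjusted p = 0.201), and the other 2 tested regions did not pass either (1.27, adjusted p = 0.0825, and 1.25, adjusted p = 0.106). The former, over a coding exon, was high in E28 DZ alone, at 14.3 CPM against 2.05 to 4.50 in the other libraries. A region near the 3′ end (chr1:251757746-251758393) had no peak at E18 and 1.45, 2.34, 3.82 and 5.27 CPM in the 4 later libraries. In contrast, 3 intronic regions with 0.677 to 1.85 CPM at E18 had no peak at E28. All 15 MUSK regions also lie in the window of the uncharacterised gene LOC110256901.

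RAPSN, which encodes rapsyn, had 6 regions, and 1 of them, the promoter region (chr2:15167455-15168227), had a peak in all 6 libraries. It holds the start of a shorter annotated transcript and had 0.910 CPM in E18 ZZ, 0.962 in E18 DZ, 1.60 in E21 ZZ, 1.73 in E21 DZ, 3.14 in E28 ZZ and 3.86 in E28 DZ. The 3 stages did not overlap and the breeds lay close together. The region rose by 1.85 ± 0.35 (log2; adjusted p = 0.0123, edgeR), or 3.59-fold, and by 1.77 with the covered length as an offset. Without E18 ZZ the adjusted p was 0.0675 and without E18 DZ 0.119. The RAPSN region at the 3′ end (chr2:15179945-15181130) had 3.18 and 3.78 CPM at E18, only 0.564 and 0.0469 at E21, and no peak at E28. The window as a whole therefore held 4.21, 5.10, 2.16, 1.77, 3.14 and 3.86 CPM and showed no call (-0.47 ± 0.56, adjusted p = 0.520).

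DOK7, which encodes the adaptor that MuSK needs for full activity, was the gene of the 9 whose window fell. Its window had 47.3, 46.3, 40.3, 35.3, 30.6 and 29.0 CPM in the order above, with both E28 libraries lowest, and fell by 0.71 ± 0.10 (adjusted p = 0.00743, edgeR; 0.0802 without E18 DZ). The promoter region (chr8:2087304-2094702) had 24.6 and 22.7 CPM at E18, then 21.7 and 20.9 at E21 and finally 20.1 and 16.1 at E28, and fell by 0.44 ± 0.13 (adjusted p = 0.0477). This call was lost without any 1 library other than E28 ZZ (adjusted p up to 0.255). A region over a coding exon (chr8:2099137-2100347) fell by 1.86 ± 0.51 (adjusted p = 0.0352), with 2.49 and 2.49 CPM at E18 against 0.523 and 0.892 at E28, a call lost without E18 ZZ, E18 DZ, E21 ZZ or E28 ZZ (up to 0.206). The covered length of the DOK7 window shrank from 14670 bp in E18 ZZ to 5478 and 6224 bp at E28. With that length as an offset the window difference was 0.57, or 0.04 relative to the median window, so the fall was not seen per covered base. The most open DOK7 region outside the promoter (chr8:2106813-2110151) had 13.3, 15.5, 16.2, 12.6, 9.95 and 11.6 CPM and did not pass (-0.46, adjusted p = 0.138).

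At MYMK the start itself and the flanking regions differed. The region holding the start (chr1:273109740-273112090), with the CAGCTG pair shown above, had 8.19 CPM in E18 ZZ, 5.99 in E18 DZ, 8.26 in E21 ZZ, 5.35 in E21 DZ, 6.01 in E28 ZZ and 7.55 in E28 DZ. The stages overlapped and the difference was -0.08 ± 0.31 (adjusted p = 0.857, edgeR). The upstream region (chr1:273113145-273117669), whose midpoint lies at -3686 bp from the start, had 25.3, 22.9, 30.2, 30.2, 39.4 and 41.4 CPM and rose by 0.70 ± 0.12 (adjusted p = 0.00849; 0.0825 without E18 DZ). The region at the 3′ end (chr1:273098232-273103438) rose by 0.66 ± 0.12 (adjusted p = 0.0104), with 20.5 and 16.2 CPM at E18 against 34.0 and 26.3 at E28, a call lost without either E18 library (up to 0.0999).

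The intronic MYMK region (chr1:273104072-273105655) lost counts in the bulk sums. It had 20.8 and 20.3 CPM at E18, then 10.6 and 9.20 at E21 and finally 7.79 and 4.74 at E28, with no overlap between stages. It fell by 1.80 ± 0.22 on the log2 scale from E18 to E28 (adjusted p = 0.00455), which held without any 1 library, and by 1.12 from E18 to E21 (adjusted p = 0.0440), which was lost without either library of E18 or E21 (up to 0.350). In the window the opposed changes left 74.9, 52.8, 77.6, 48.3, 55.4 and 80.0 CPM and a difference of 0.07 ± 0.31 (adjusted p = 0.875). In E18 DZ, E21 DZ and E28 ZZ part of the upstream peaks lay outside the window, which moves this sum. The window difference was -0.57 without the E28 DZ library (adjusted p = 0.0191) and 0.61 without E28 ZZ (adjusted p = 0.0119), which are calls in opposite directions.

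CDH15, the M-cadherin gene, had no call in bulk. Its promoter region (chr6:646007-654699) had 36.8 CPM in E18 ZZ, 34.3 in E18 DZ, 30.9 in E21 ZZ, 28.1 in E21 DZ, 30.6 in E28 ZZ and 47.2 in E28 DZ. E28 DZ was the highest library and E28 ZZ lay within the E21 range, giving 0.06 (adjusted p = 0.830, edgeR). The other tested region of the gene had 3.18, 2.29, 2.60, 3.18, 0.958 and 2.88 CPM (-0.71, adjusted p = 0.351), a value that was -1.62 and called without E28 DZ (adjusted p = 0.0367) but 0.10 without E28 ZZ (0.884). The window followed, with 0.03 (adjusted p = 0.923) over all libraries but -0.41 (adjusted p = 0.0463) without E28 DZ and 0.43 (adjusted p = 0.0358) without E28 ZZ, which are calls in opposite directions.

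Of the regions called between E28 and E18, the promoter regions mostly rose and the other regions mostly fell. Of the 26 regions with a peak in all 6 libraries, 13 were called, 7 higher and 6 lower, against 37.1% of all such regions, of which 19% were higher and 18.1% lower. Among the 10 promoter regions, 5 rose (CHRNA1, CHRNG, RAPSN, CHRND and the upstream MYMK region) and 1 fell (DOK7), with a median log2 fold change of 0.40. Among the 16 other regions, 2 rose and 5 fell, with a median of -0.31. Genome-wide, 23.2% of 16350 promoter regions were higher and 17.2% lower (median 0.06), and 17.8% of the other regions were higher and 18.4% lower (median -0.06). The difference between the promoter and the other regions of the 9 genes was not itself tested. In the first interval, E21 against E18, 2 of the 26 regions were called (CHRNA1 promoter higher, MYMK intron lower; 6.47% genome-wide), and in the second, E28 against E21, another 2 (CHRNA1 promoter higher, CHRND 3′ end lower; 7.04% genome-wide).

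**Figure D2:**
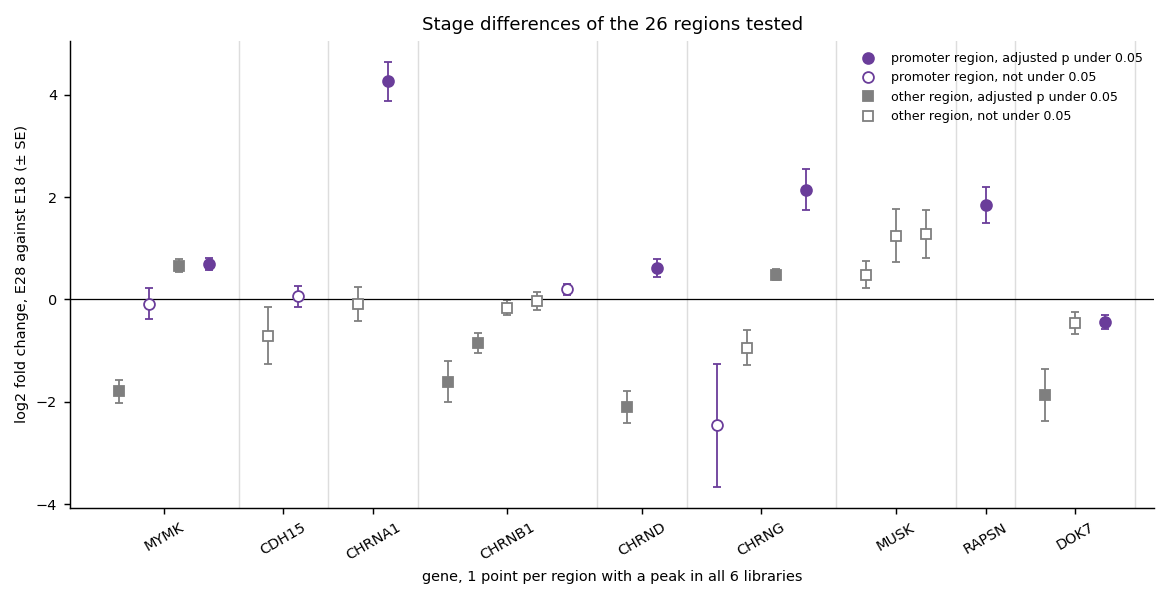
Log2 fold change of E28 against E18 on the vertical axis, with its SE as bars, for the 26 tested regions, grouped by gene along the horizontal axis. Circles mark promoter regions and squares other regions, and filled symbols passed an adjusted p of 0.05. Of the promoter regions, 5 filled symbols lie above 0 and 1 below, and of the other regions 2 lie above and 5 below.

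The counts lie only in called peaks, and the peaks covered less at E28. Taking covered length as an offset moved the median log2 fold change of all regions from -0.02 to 0.42 and that of all windows from -0.06 to 0.52 (over the 20368 windows that could be fitted so), and the genome-wide split of called windows from 4387 higher and 5220 lower to 13248 higher and 480 lower (regions from 14891 and 14230 to 35558 and 5060). Relative to the median region, the promoter regions then differed by 1.66 (CHRNA1), 1.35 (RAPSN), 0.99 (CHRNG), 0.67 (upstream MYMK), 0.40 (CDH15, called on this scale), 0.19 (CHRND) and -0.09 (DOK7), and the MYMK intron by -1.47. With the offset, 12 of the 26 regions were called, 10 higher and 2 lower, against 51.7% of all regions. Such a call was made against 0, while the median region stood at 0.42. A rise called on this scale need not exceed that median. The promoter rises at CHRNA1, RAPSN, CHRNG, CHRND and upstream of MYMK, the rises at the 3′ ends of MYMK and CHRNG, and the falls in the MYMK intron and the smaller CHRNB1 intron region (-1.21 relative to the median) were called on both scales. The falls at the DOK7 promoter, the DOK7 exon region (-0.27 relative to the median), the larger CHRNB1 intron region (-0.50) and the CHRND 3′ end were called on the count scale alone.

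Between breeds, none of the 9 windows and none of the 26 regions passed (edgeR, all adjusted p at least 0.817), against 0.00442% and 0.0% called genome-wide. At an unadjusted p under 0.05 there were 2 of 9 windows and 2 of 26 regions, and genome-wide 1179 of 22612 windows and 3857 of 78533 regions. DESeq2 called 1 of the 9 windows and 520 of all windows, and 0 of the 26 regions and 159 of all regions. The largest window differences were those of MUSK, 0.70 ± 0.18 higher in DZ, and CHRNA1, 0.46 ± 0.14 higher in DZ, each with adjusted p = 0.817. In both genes DZ exceeded ZZ at all 3 stages, so the direction was shared by 3 of 3 pairs, and each pair compares 1 sow with 1 other. At DOK7 the direction was the opposite in 3 of 3 pairs, with ZZ above DZ at each stage. In the windows of MYMK, CDH15, CHRNB1 and CHRND DZ was above ZZ at 1 stage, and in those of CHRNG and RAPSN at 2. The agreement of pairs was not tested in any of these genes. The share of all windows with such agreement was not counted, so it says nothing particular about these genes. MYMK (-0.19 ± 0.26) and CDH15 (0.17 ± 0.19) differed by less than their SE. The MYMK value is also moved by the upstream peaks partly outside the window in E18 DZ, E21 DZ and E28 ZZ.

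The cells fell into 5 clusters, made from regions more than 100 kb away from any of the listed genes. By the marker lists these were fibroblast and mesenchyme-like (29419 cells), neural progenitor-like (12485, which raised 5 of 7 neural progenitor, 5 of 7 neuron and 4 of 6 neural crest and glia markers), epithelial-like (8445, which also raised 5 of 7 cardiac markers), myogenic-like (6837, 13 of 18 myogenic markers raised) and endothelial-like (1623). The myogenic-like cells made up 6.99% and 7.07% of kept cells at E18 (ZZ before DZ), then 9.94% and 10.2% at E21 and finally 14.6% and 22.1% at E28. Other shares moved further. From E18 to E28 the fibroblast and mesenchyme-like share went from 23.7% and 19.1% to 79.1% and 71.2%, the neural progenitor-like share from 24.5% and 38.5% to 2.48% and 3.83%, and the epithelial-like share from 40.8% and 30.1% to 1.73% and 1.43%. The fibroblast and mesenchyme-like cluster raised 6 of 9 markers of its list and 3 of 8 sclerotome and cartilage markers. At resolution 0.6 a sclerotome and cartilage-like cluster held 18.1% and 13.3% of kept cells at E18 and 11.8% and 4.69% at E28. The fibroblast and mesenchyme-like clusters of that resolution held 3.46% and 2.71% of E18 ZZ and 3.69% and 1.97% of E18 DZ. The part of these shares in the bulk levels was not tested. The myogenic-like share grew with stage alongside the bulk levels of CHRNA1, and its part in those levels was not tested beyond the values within the cluster given below. Doublets were not called.

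Most 5′ regions were most open in the myogenic-like cells, a description without a test. The share of all regions highest in these cells was not counted, so the pattern is not shown to be particular to these genes. Pooled over libraries, the CHRNA1 promoter had 34.5 CPM there and 0.784 to 3.67 in the other clusters. The CHRNG promoter had 26.1 CPM against 1.28 to 3.11, and the RAPSN promoter 10.6 against 0.560 to 0.823. The upstream MYMK region had 71.6 CPM against 11.2 to 28.8, the MYMK start 15.9 against 2.77 to 8.79, the CDH15 promoter 96.0 against 23.1 to 32.5 and the CHRND promoter 50.9 against 18.2 to 19.9. These 6 regions other than that of CHRNA1 were highest in the myogenic-like cells in 6 of 6 libraries, and CHRNA1 in 5 of 6. The first MUSK region had 24.9 CPM against 1.33 to 11.9 and was highest there in 4 of 6 libraries. The CHRNB1 promoter had 73.9 CPM against 50.6 to 62.3 and was highest there in 2 of 6, and the DOK7 promoter had 30.8 against 17.5 to 31.7 (3 of 6), so another cluster reached the level of the myogenic-like cells at DOK7. Of the 4 regions with no peak at E18 but one in each later library, 3 were highest in the myogenic-like cells. The coding exon region of CHRNA1 had 27.0 CPM there against 0.116 to 2.43 elsewhere (highest in 4 of 6 libraries), an intronic region of CHRNA1 2.79 against 0.0513 to 0.450 (3 of 6) and the 3′ region of MUSK 13.4 against 0.0513 to 0.367 (4 of 6). An intronic MUSK region, with 4.33 and 2.38 CPM in bulk at E28, went the other way, at 0.475 CPM against 0.0194 to 2.16 (0 of 6). With no peak at E18, none of these 4 regions could be highest in any cluster of an E18 library. Of the 5 regions outside promoters that were called lower at E28 than at E18, 4 lay within the range of the other clusters, namely the MYMK intron (11.3 CPM against 8.24 to 23.4), the CHRND 3′ end (5.02 against 2.46 to 8.86), the larger CHRNB1 intron region (10.8 against 8.92 to 15.8) and the DOK7 exon region (2.47 against 0.359 to 2.65). The DOK7 exon region was nonetheless highest in the myogenic-like cells in 5 of 6 libraries, the larger CHRNB1 intron region in 1 and the other pair in 0. The smaller CHRNB1 intron region was above it, with 5.43 CPM against 0.871 to 4.07, and was highest in the myogenic-like cells in 6 of 6 libraries.

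**Figure D3:**
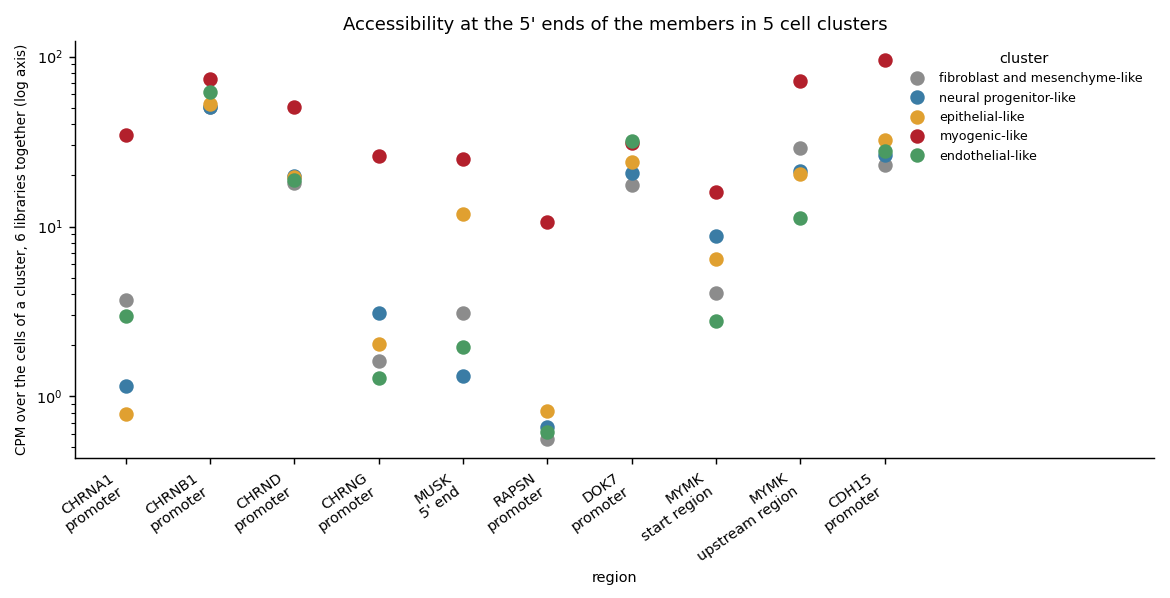
Accessibility of the 5′ regions of the 9 genes in each of the 5 clusters, in CPM on a log axis, with the cells of all libraries pooled. The myogenic-like points of CHRNA1, CHRNG and RAPSN, at 34.5, 26.1 and 10.6 CPM, lie well above those of the other clusters, while those of CHRNB1 and DOK7 lie among or close to them.

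Within the myogenic-like cells the windows of 7 of the 9 genes rose from E18 to E28 and none fell, against 43.1% of 21827 windows called (19.7% higher, 23.5% lower; edgeR). This comparison joins cells of unlike make-up: 77.5% and 77.8% of the myogenic-like cells at E18, but 6.04% and 2.72% at E28, lay in an epithelial-like sub-cluster, described below. Without it, 4 of the 9 windows rose and DOK7 fell, and the CHRNA1 difference was 2.86 in place of 3.99. CHRNA1 had 6.68 CPM in E18 ZZ, 6.03 in E18 DZ, 48.6 in E21 ZZ, 62.8 in E21 DZ, 91.4 in E28 ZZ and 120 in E28 DZ. The step from E18 to E21 was the larger, 3.09 (adjusted p = 0.00140) against 0.90 from E21 to E28 (adjusted p = 0.0167; 0.0540 without E21 ZZ), and the whole difference was 3.99 ± 0.17 (adjusted p = 0.000166), or 15.9-fold. MUSK had 17.9, 23.6, 47.6, 55.3, 60.1 and 68.4 CPM, a rise of 1.60 ± 0.13 (adjusted p = 0.000343), with 1.30 already reached by E21 (adjusted p = 0.00434). In both genes the E18 libraries stood apart from all later ones. Peaks were called on whole libraries, so a site without a called peak counts 0 in these cells as well. At E18 this held for the coding exon region of CHRNA1 and the 3′ region of MUSK. Pooled over libraries, these regions gave 27.0 of 69.6 CPM and 13.4 of 50.9 CPM of the windows in these cells. The part of this in the rises was not tested.

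RAPSN and CHRNG also rose in these cells. RAPSN had 4.03, 5.05, 10.1, 9.93, 15.4 and 14.3 CPM and rose by 1.67 ± 0.29 (adjusted p = 0.00464, edgeR), while its window showed no call in bulk. CHRNG had 39.9, 42.1, 61.6, 59.2, 74.0 and 86.4 CPM and rose by 0.92 ± 0.12 (adjusted p = 0.00161), and by 0.54 from E18 to E21 (adjusted p = 0.0396, lost without either library of E18 or E21, up to 0.296). The calls of CHRNA1, MUSK, RAPSN and CHRNG between E28 and E18 held without any 1 library, but that of RAPSN was lost both without the sub-cluster described below and in it alone (adjusted p = 0.101 and 0.536).

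CHRND, CDH15 and MYMK also passed within these cells, but each call was lost without E18 DZ. As in bulk, part of the upstream MYMK peaks lay outside the window in E18 DZ, E21 DZ and E28 ZZ, which moves the MYMK sums. CHRND had 36.0, 29.3, 54.2, 52.5, 52.0 and 73.6 CPM (0.89 ± 0.20, adjusted p = 0.0104, edgeR; 0.115 without E18 DZ). CDH15 had 70.2, 69.1, 86.4, 107, 94.4 and 137 CPM (0.66 ± 0.15, adjusted p = 0.0126; 0.152 without E18 DZ). MYMK had 96.6, 76.0, 128, 94.0, 116 and 145 CPM (0.57 ± 0.19, adjusted p = 0.0431; 0.303 without E18 DZ, and also lost without E18 ZZ or E28 DZ). CHRNB1, with 136, 140.2, 140.0, 132.96, 155 and 160 CPM (0.15, adjusted p = 0.273), and DOK7, with 57.1, 43.1, 63.7, 57.7, 47.9 and 48.7 CPM (-0.09, adjusted p = 0.642), did not pass. From E18 to E21, 3 of the 9 windows were called (9.22% of all windows), from E21 to E28 1 was called (6.26%), and between breeds none by edgeR or DESeq2 (0.00458%), with 3 of the 9 and 1111 of all 21827 windows at an unadjusted p under 0.05.

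For reference, the windows of the regulator genes in the same cells were at 20.6, 21.5, 47.6, 60.7, 64.6 and 75.1 CPM for MYOG (1.68 from E18 to E28) and at 22.4, 23.0, 42.2, 47.1, 63.2 and 64.1 CPM for MYOD1 (1.44). Of the progenitor regulators, PAX3 was called lower at E28 than at E18 (-0.54, adjusted p = 0.00513, edgeR) and PAX7 did not pass (-0.05, adjusted p = 0.747). A covered length is known only for peaks called on whole libraries, so it is not a length for these cells. For the RAPSN window it was 1878 and 1818 bp at E18 but 553 and 602 bp at E28. The RAPSN 3′ region, without a peak at E28, gave 0.261 of 10.98 CPM in these cells. With that length as an offset the median window of these cells moved from -0.03 to 0.53. All 9 genes were called higher, each against 0 and not against that median. Relative to that median the differences were 2.80 (RAPSN), 1.70 (CHRNA1), 1.01 (CHRND), 0.81 (CDH15), 0.66 (DOK7), 0.59 (MUSK), 0.48 (CHRNG), 0.27 (MYMK) and 0.10 (CHRNB1), and the genome-wide split went from 4290 higher and 5128 lower to 11073 and 941.

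**Figure D4:**
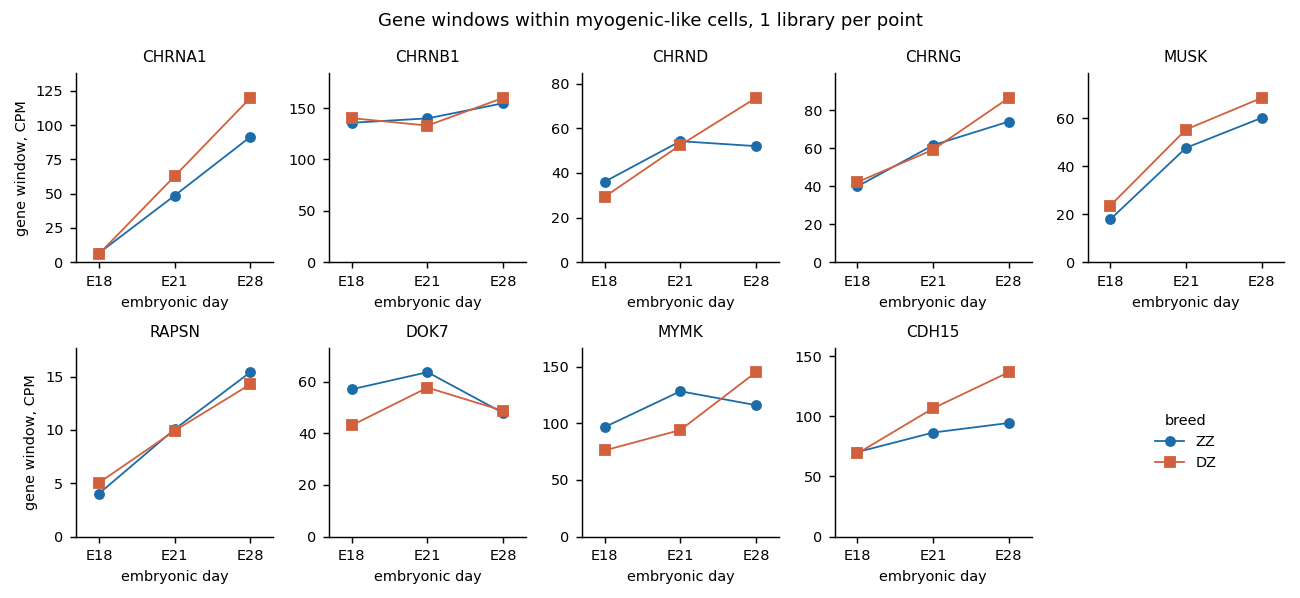
Window level of the 9 genes in the myogenic-like cells of each library, in CPM, against stage, with circles for ZZ and squares for DZ. CHRNA1 climbs from 6.03 to 6.68 CPM at E18 to 91.4 and 120 CPM at E28, MUSK reaches most of its rise by E21, CHRNB1 stays between 132.96 and 160 CPM, and DOK7 at E28 (47.9 and 48.7 CPM) lies within its E18 range.

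The myogenic-like cells of E18 were of a different make-up. A sub-cluster that was epithelial-like by its markers, with 5 of 7 epithelial, 4 of 8 endothelial, 1 of 9 myogenic progenitor and 0 of 10 myocyte markers raised relative to the other myogenic-like cells, held 609 of 786 (77.5%) of them in E18 ZZ and 554 of 712 (77.8%) in E18 DZ, but 171, 142, 83 and 57 cells in the later libraries. It also raised 3 of 9 fibroblast and mesenchyme, 3 of 8 sclerotome and cartilage, 2 of 7 cardiac and 2 of 5 blood markers. Its mean log2 fold was 0.86 over the epithelial list, -0.09 over the myogenic progenitor list and -0.78 over the myocyte list. The name is thus relative to the other myogenic-like cells, and whether these cells are muscle precursors was not tested. Most E18 cells compared above as myogenic-like lay in this sub-cluster. The comparison was therefore repeated without it and in it alone, a choice made after seeing the data. Leaving it out did not make the stages alike. Of the remaining cells, E18 ZZ and E18 DZ had 94 and 70 in the smaller of the 2 myocyte-like sub-clusters and 15 and 19 in the larger, whereas E28 ZZ had 67 and 456 and E28 DZ 110 and 888. The smaller raised 6 of 10 myocyte markers, MYOG not among them, but also 2 of 7 cardiac (TNNT2 and MYL7) and 3 of 8 endothelial markers. Whether its cells are skeletal or cardiac was not tested. An unnamed sub-cluster with 0 of 10 myocyte markers raised held 22 and 22 cells at E18 but 364 and 924 at E28, and another held 46 and 47 at E18 but 384 and 507 at E21 and 404 and 114 at E28. Without the epithelial-like sub-cluster, CHRNA1 (2.86, adjusted p = 0.000884), MUSK (1.496, 0.00160), CDH15 (0.55, 0.0230) and CHRNG (0.53, 0.0435) rose and DOK7 fell by 0.66 (adjusted p = 0.0179, edgeR). In it alone, CHRNA1 (4.43, adjusted p = 6.93e-06), MUSK (1.203, 0.0116), CHRND (0.92, 0.0375), CHRNG (0.83, 0.0379) and CDH15 (0.70, 0.0412) rose. CHRNA1, MUSK, CHRNG and CDH15 were higher at E28 in both, and CHRNA1 and MUSK were called in both from E18 to E21 too. The CHRNA1 step from E18 to E21 was 1.97 without the sub-cluster and 3.64 in it. That from E21 to E28 was called in neither (0.89 and 0.79, adjusted p = 0.0800 and 0.194, edgeR). RAPSN (0.89 without the sub-cluster and 0.87 in it, adjusted p = 0.101 and 0.536) and MYMK (0.26 and 0.39, adjusted p = 0.355 and 0.238) were called in neither, and CHRND was not called without the sub-cluster (0.35, adjusted p = 0.205). Of all windows, 30.9% were called without it and 14.2% in it alone.

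In the wider pathway lists, called falls outnumbered called rises between E18 and E28, as they did over all windows (5220 lower and 4387 higher, 42.5% called). Of 21 listed fusion partners, among them adhesion molecules and Rac activators of the DOCK family, 19 were tested in bulk windows, and 8 fell and 0 rose (edgeR). The list had 10 members at an unadjusted p under 0.05 and 10 called by DESeq2, all lower, while 11997 of the 22612 windows had such a p and DESeq2 called 61.8%. Its median was -0.30, against -0.06 for all windows. Of 29 further junction genes, 7 rose and 11 fell (DESeq2 called 22, of which 9 were higher), with a median of -0.01. The 8 lower of 19 stand beside 23.1% of all windows called lower, and the 18 called of 29 beside 42.5% called in either direction. From E21 to E28, 0 of the 19 fusion partners (8 unadjusted, 8 by DESeq2) and 5 of the 29 junction genes (1 higher, 4 lower) were called, against 6.62% of all windows (235 higher, 1261 lower). In this interval the junction list had 9 at an unadjusted p under 0.05 and 13 called by DESeq2, of which 5 were higher. From E18 to E21 edgeR called 0 in either list (4 and 10 unadjusted, 5 and 15 by DESeq2), and between breeds likewise 0 (2 and 1 unadjusted, 1 and 0 by DESeq2). Over all windows the counts were 6506 unadjusted and 7803 by DESeq2 from E18 to E21, 6442 and 7864 from E21 to E28, and 1179 and 520 between breeds. The 6 pathway windows with the smallest adjusted p were LRP10, LAMA5, LAMA4, ADGRB1, SCN4A and PRKAR1A. LAMA4, a laminin chain of the synaptic basal lamina, had 59.8 and 62.4 CPM at E18 against 129 and 153 at E28 (1.14, adjusted p = 0.00366, edgeR), whereas its relative LAMA5 fell by 1.27 (adjusted p = 0.00364), with 117 and 96.1 against 48.3 and 43.9 CPM. PRKAR1A, a regulatory subunit of protein kinase A, rose by 0.68 (adjusted p = 0.00649). SCN4A, the sodium channel of adult muscle, fell by 0.76 (adjusted p = 0.00615), ADGRB1, an adhesion receptor linked to myoblast fusion, by 0.64 (0.00579) and LRP10 by 1.15 (0.00329). With the covered length as an offset LRP10, ADGRB1 and SCN4A were higher at E28 (0.47, 0.47 and 0.45), each below the median of all windows on that scale, 0.52.

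Over the 30 combinations of 5 clusters and 6 libraries, the windows most like the mean pattern of the 9 genes were CALML6 (Pearson r = 0.961), LOC106509687 (0.942), SMTNL1 (0.917), LOC110256266 (0.913) and LOC106504698 (0.911). These points share libraries and depth, so the coefficients describe likeness only. The coefficients of the 9 genes with their own mean ran from 0.274 (CHRNB1) and 0.552 (DOK7) to 0.922 (CDH15), so they did not share the pattern alike.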

How the data were processed

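The authors aligned single-cell ATAC-seq reads to Sscrofa11.1 with Cell Ranger ATAC and called peaks separately in each library. Per the file headers and values, the deposited matrices are raw counts of cut sites, a row per peak and a column per barcode, without normalization. The study's tools for cell analysis were Seurat 3.1.1 and Signac 0.2.2 and were not used here.

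Of 64439 deposited barcodes, 58809 with 2000 to 30000 counts were kept. No doublet caller was run. Counts were summed per library over gene windows (any peak overlapping by at least 1 bp) and over regions merged from all peaks. The edgeR quasi-likelihood test (4.0.16, R 4.3.3) was run with TMM factors, filterByExpr and additive terms for stage and breed, over all windows or all regions with a peak in 6 libraries. A call was a Benjamini-Hochberg adjusted p under 0.05, and the fit left 2 residual degrees of freedom. With 1 library, itself 1 pool of embryos, for each stage and breed, the p-values measure departure of the libraries from the additive terms. They do not measure the spread between like libraries or between sows. Standard errors were taken as the fold change over the root of F. The procedure was tested on simulated data. DESeq2 1.42.0 was the other tool.

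Cells were clustered with Leiden (resolution 0.3) on regions of odd autosomes more than 100 kb from every listed gene. The names rest on marker lists. The 9 genes, the lists and the named regions (every tested promoter region, the tested other region with the highest mean CPM for each gene, and the 6 pathway windows with the smallest adjusted p) were chosen with earlier results of these data known. Regions outside that rule are named where they were called or changed most, after their values were seen. Sequences and genes came from RefSeq for Sscrofa11.1.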

Additional observations from a re-analysis of the deposited data

How the results depend on the processing

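The additive terms for stage and breed set stages against each other within breeds, and breeds within stages, and the labels give no replicate numbers for a further block. Shares in parentheses are those of all features called under the same setting, as a range where 1 library was left out. The number of the 9 windows called between E28 and E18 (4) became 8 with the covered length as an offset (67.4%) and ranged from 1 to 7 without 1 library (6.36% to 41.9%), with CHRNA1 alone left without E18 DZ (6.36%). For E21 against E18 (1) it was 3 with DESeq2 (34.5%), 0 with the length offset (19.7%), with promoter peaks alone (0.158%) and with peaks outside promoters alone (0.312%), and 0 to 1 without 1 library (0.0% to 14.0%). For E28 against E21 (1) it was 4 with DESeq2 (34.8%), 7 with the offset (42.6%), 0 with promoter peaks alone (2.33%) and with the others alone (0.0%), and 0 to 5 without 1 library (0.152% to 14.7%). For DZ against ZZ (0) it was 1 with DESeq2 (2.2997%) and 0 without any 1 library.

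The number of the 26 regions called between E28 and E18 (13) was 2 to 14 without 1 library (10.5% to 39.3%), lowest without E18 DZ. For E21 against E18 (2) it was 6 with DESeq2 (18.1%), 10 with the offset (18.1%), 0 when regions with a peak in at least 1 library were tested (0.0%) and 0 to 7 without 1 library (0.0% to 21.7%). For E28 against E21 (2) these were 6 (19.7%), 10 (31.1%), 0 (0.0%) and 0 to 9 (0.0% to 20.6%), and it was 1 without the breed term (7.24%) and 1 with barcodes of 4000 to 60000 counts (6.71%).

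Within the myogenic-like cells, the count for E28 against E18 (7) was 4 to 7 without 1 library (13.7% to 44.7%). For E21 against E18 (3) it was 5 with DESeq2 (19.8%), 7 with the offset (17.9%) and 2 to 7 without 1 library (0.861% to 22.8%). For E28 against E21 (1) it was 2 with DESeq2 (16.2%), 8 with the offset (28.4%), 0 both without the sub-cluster holding most E18 cells (3.75%) and in it alone (0.953%), which were chosen after seeing the data, and 0 to 4 without 1 library (2.50% to 16.9%). For DZ against ZZ it stayed at 0 without any 1 library.

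The sign turned in 25 single results that were called in the main test or under the alternative, of which 20 were with the covered length as an offset. That offset moved the median of all windows to 0.52 (E28 against E18) and 0.33 (E28 against E21), of all regions to 0.42 and 0.32, and of windows in myogenic-like cells to 0.53 and 0.32, so a value above 0 but below these medians turned with the scaling of all features. For E28 against E18 that offset gave 0.41 for the CHRNB1 window, 1.19 for RAPSN, 0.57 for DOK7, 0.47 for LRP10, 0.47 for ADGRB1 and 0.45 for SCN4A, of which RAPSN and DOK7 lay above the median. For E28 against E21 it gave 0.49 for the DOK7 window, 0.62 for LRP10, 0.15 for LAMA5, 0.42 for ADGRB1 and 0.37 for SCN4A, all but LAMA5 above the median. Among regions it gave 0.22 for the CHRND 3′ end, 0.34 for the DOK7 promoter, 0.15 for its called exon region and 0.67 for its largest other region (E28 against E18), and 0.24, 0.42 and 0.86 for the first, the second and the last of these (E28 against E21), of which 0.67, 0.42 and 0.86 lay above it. For the DOK7 window in myogenic-like cells it gave 1.19 and 0.52 in these comparisons, both above it. The lengths used for these cells, also in the counts above, were those of whole libraries. With only peaks lying mostly inside the window counted, MYMK was at -1.10 (E28 against E18) and LRP10 at 0.020 (E28 against E21). Without 1 library, the MYMK window (E28 against E18) ranged from -0.57 without E28 DZ to 0.61 without E28 ZZ, and CDH15 likewise from -0.41 to 0.43, each called in both directions. With peaks outside promoters alone CHRND was at -12.66, where both E28 libraries had 0 counts, so that this value depends on the prior count and is no bound. By construction the offset removes regions and windows without a peak in some library and divides by peak length. The other causes were not tested. Of the other single results, 2049 kept direction and side of the threshold, 116 lost a call, 99 gained one, and 171 turned sign with neither value called.

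Depth was 89816504 to 133037579 counts per library, and the CHRNA1 promoter rested on 87 and 105 counts at E18. A level of 0 says that no peak was called, not that the site was closed.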
